A study of Mus musculus with 9 samples.

Results

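The Ndrg1 Angpt4 subtype of the Trpm8 cold neurons was a set of 159 cells among 6997 cell barcodes from mouse trigeminal ganglion, the ganglion that holds the sensory neurons of the face, mouth and cornea. Its members were chosen by their own transcripts. A barcode was taken as a neuron when it held 500 to 7500 genes, at least 3 of 6 neuron genes (Tubb3, Scn9a, Snap25, Nefl, Nefm and Uchl1) and no UMI of the epithelial gene Epcam, where a UMI (unique molecular identifier) counts 1 captured transcript. Of the 3855 neurons so gated, 436 held at least 1 UMI of Trpm8 or of Foxp2. A neuron of these 436 was a member when it held more genes of a first list of 8 (Ndrg1, Cald1, Wls, Ntsr2, Tmtc4, Ndp, Klhl13 and Angpt4) than of a second list of 7 (Cpne9, Ociad2, Ccnd2, Kcnh8, Hpca, Fam184b and Pcp4l1). The mirror image of that rule gave 222 cells, called the sister subtype here, and 55 cells held as many genes of both lists and are called ties. Members made up 4.12% of gated neurons (exact binomial 95% interval 3.52% to 4.80%) and 36.5% (31.9% to 41.2%) of the neurons with Trpm8 or Foxp2. The remaining 3419 gated neurons, with neither gene, are called other neurons.

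Trpm8 encodes a cation channel that opens on cooling and to menthol, and neurons with this channel carry the sense of cool and of cold discomfort from skin, teeth and cornea. Many of these neurons are small, and they differ among themselves in axon calibre, in the peptides they hold and in other thermosensitive channels. Galanin and substance P are peptides that sensory neurons package in dense-core vesicles and can release both in the brainstem and in the tissue they innervate.

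The mice were FVB/N, wild-type and aged 3-6 wks by the labels, and no treatment or genotype was compared. Ganglia of several mice of both sexes were pooled for each run, glia were depleted before encapsulation, and single cells were captured in droplets with barcoded beads (Drop-seq). The labels list 9 runs, but the barcodes name no run or animal, so the cells form 1 pooled sample with no measure of the spread between runs or mice. Intervals cover counting error alone, and with 1 sample no difference was tested.

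Members held 1036 to 37234 UMIs (median 4899) and a median of 2405 genes, against a median of 4338 UMIs in the sister subtype and 2883 in other neurons. Levels are given as CPM, the UMIs of a gene per 1000000 UMIs summed over the cells of a group, with exact Poisson 95% intervals. A gene without a UMI in the members is below 2.63 CPM, the level that 3 counts over the group would give, and a share of 0 of 159 cells allows up to 1.89% of cells with a UMI, which sets no limit on the cells that express a gene. Barcodes of glia (162 cells with at least 3 of 6 glial genes, median 1471 UMIs) and of red blood cells (805 cells, median 1275 UMIs) served as the background for genes of neurons. No barcode of a member was shared between runs in the table.

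The label was checked first against genes of cold neurons and of other neurons. Of 7 genes known from Trpm8 neurons, Trpm8 and Foxp2 chose the cells and were at 0 in other neurons by the rule. The other 5 (Gpr26, Lxn, Rarres1, Cdh8 and Plcd4) summed to 5119 CPM in members, 6583 CPM in the sister subtype and 1432 CPM in other neurons. These 5 genes stand in the marker lists that the study drew from these same cells, so the check is not independent of them. The summed level of 6 genes of CGRP nociceptors, the neurons that make the calcitonin gene-related peptide, was 3073 CPM in members, 824 CPM in the sister subtype and 6131 CPM in other neurons. Members thus lay nearer the sister subtype on the first list and between the sister subtype and other neurons on the CGRP list.

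The CGRP level was uneven over the members. In 24 of 159 members (15.1%, 9.92% to 21.6%) Calca, the gene of CGRP, had more UMIs than Lxn, a carboxypeptidase inhibitor gene of high level in Trpm8 neurons. Since Calca and Lxn made this split, and Trpm8 and Foxp2 the gate, these were left out of the sums that follow. Gpr26, Rarres1, Cdh8 and Plcd4 summed to 379 CPM in the 24 cells, 2203 CPM in the other 135 members and 364 CPM in other neurons. The CGRP list without Calca summed to 2237 CPM in the 24 cells and 896 CPM in the other 135, beside 2373 CPM in 1548 other neurons with at least 5 Calca UMIs. Of the 24 cells, 3 (12.5%) held at least 2 UMIs of Trpm8, against 70 of the 135 (51.9%). Trpm8 was part of the gate, so these shares are a description only. On these sums, the first of which rests on genes that the study chose on these cells, the 24 cells go against the name of the subtype, and 16 of them lay at the edge of the rule, with only 1 more gene of the first list than of the second. In the sister subtype 10 of 222 cells (4.50%) had more Calca than Lxn. The main gene levels and list counts against the sister subtype are therefore given with and without these cells. Against other neurons they are mostly given over all cells. Leaving out the cells with more Calca than Lxn cut the other neurons from 3419 to 1790. Whether the 24 members are cold neurons, CGRP neurons with stray transcripts or droplets with more than 1 cell was not tested.

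**Figure D1:**
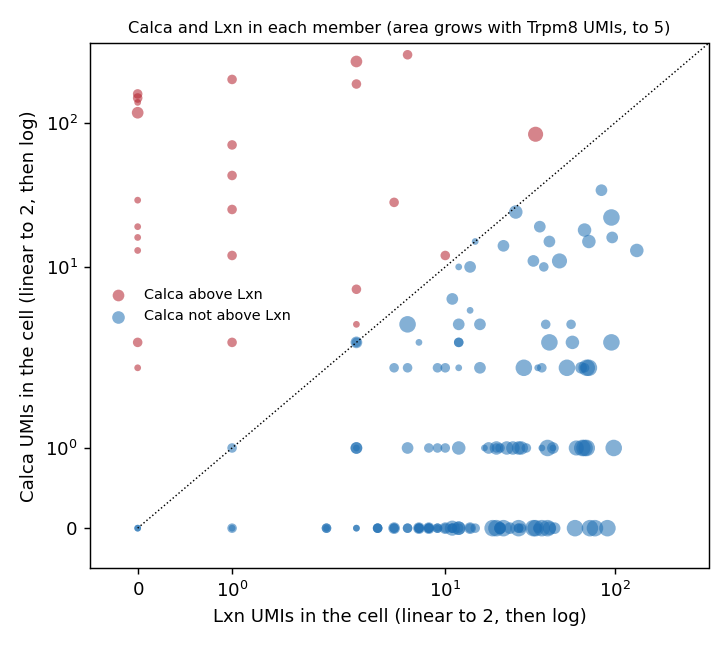
UMIs of Calca (y axis) against UMIs of Lxn (x axis) in each of the 159 members, on axes that are linear to 2 and logarithmic beyond, 1 point per cell, with a point area that grows with Trpm8 UMIs up to 5. The 24 cells above the diagonal hold more Calca than Lxn, and the other 135 cells lie on or below it.

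Markers of Mrgprd, itch and low-threshold C-fibre neurons were lower in members than in other neurons. Of the 159 members, 3 (1.89%) held a UMI of Mrgprd, Nppb or Mrgpra3, the receptors and peptide that mark nonpeptidergic and itch neurons. Mrgprd and Agtr1a of the Mrgprd neuron list and Sst of the itch list were at 0 in all members. The Mrgprd neuron list summed to 7.88 CPM in members and 249 CPM in other neurons, the itch list to 5.25 CPM and 69.6 CPM, and the list of low-threshold C fibres to 95.4 CPM and 496 CPM. Pituitary genes summed to 477 CPM in members, 261 CPM in the sister subtype and 1180 CPM in other neurons. The list of large myelinated neurons, which includes Nefh, summed to 1110.3 CPM in members, 2863 CPM in the sister subtype and 1725 CPM in other neurons. The glial list summed to 609 CPM in members, 171 CPM in the sister subtype, 1852 CPM in other neurons and 90094 CPM in glia. Of the 696 glial UMIs of members, 392 came from 1 cell and 80 from another, and without the 2 cells with most in each group the sums were 202 CPM in members and 118 CPM in the sister subtype. Haemoglobin and related red blood cell genes came to 6145 CPM in members and 4831 CPM in the sister subtype, against 601919 CPM in red blood cells. Endothelial genes gave 1 UMI and immune genes 2 UMIs over all members. The part of glial and blood transcripts in the levels below was not tested.

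The genes that chose the members are given as a description. Of the first list, Ndrg1, Cald1, Ntsr2, Ndp and Angpt4 were over 2-fold higher than in the sister subtype and Wls, Tmtc4 and Klhl13 were not, with a median log2 ratio of 1.57 over the 8 genes, and 5 of the 7 genes of the second list were over 2-fold lower, with a median of -2.17. Ndrg1, a stress-responsive gene that Schwann cells also express (chromosome 15, 66929318 to 66969640, GRCm38), was at 161 (139 to 186) CPM in members, 13.6 CPM in the sister subtype and 18.7 CPM in other neurons. It was seen in 40.3% of members and also in 54.9% of glia. Cald1, the actin-binding caldesmon (chromosome 6, 34598500 to 34775473), was at 239.9 (212 to 270.1) CPM in members and 37.4 CPM in the sister subtype. Angpt4, a ligand of the angiopoietin family (chromosome 2, 151911210 to 151945337), was at 77.9 (62.6 to 95.9) CPM in members, 10.2 CPM in the sister subtype and 2.41 CPM in other neurons. Its receptor gene Tek had no UMI in either Trpm8 group. Ndp, the secreted ligand norrin, belongs to the first list, and its receptor genes Fzd4 and Lrp5 and its co-receptor gene Tspan12 were all at 0 in members.

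Trpm8 (chromosome 1, 88277661 to 88389293) stood at 318 (286 to 352) CPM in members and 548 CPM in the sister subtype. It was seen in 135 members (84.9%), with 0, 1 and 16 UMIs per cell as lowest, median and highest over all members, and in 0.617% of glia and 0.497% of red blood cells. The other 24 members entered through Foxp2, a forkhead transcription factor gene (chromosome 6, 14901349 to 15441977), and 58 members (36.5%) held both. Foxp2 stood at 116 CPM in members and 114 CPM in the sister subtype.

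Because Ndrg1 is also a glial gene, the glial genes were read in members with and without it. The 64 members with Ndrg1 held 306 CPM (261 to 357) of the 6 glial genes, and the 95 members without it held 874 CPM (801 to 951). Of these UMIs, 49.1% and 73.5% came from 1 cell in each set, and without that cell the sums were 164 CPM and 233 CPM. The share of cells with a UMI of a glial gene went the other way, at 53.1% of members with Ndrg1 and 40% of those without. The median depth was 6129 UMIs in members with Ndrg1 and 3701 UMIs in those without, and the part of glial RNA in the Ndrg1 level was not tested.

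Near the threshold of the rule, 58 members had a difference of 1 between the lists, 38 had 2, 24 had 3, 24 had 4, 9 had 5 and 6 had 6. Just outside it lay the 55 ties, and 65 sister cells had a difference of 1 in the other direction. Members held 1 to 8 genes of the first list (median 4) and 0 to 6 genes of the second (median 1).

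**Figure D2:**
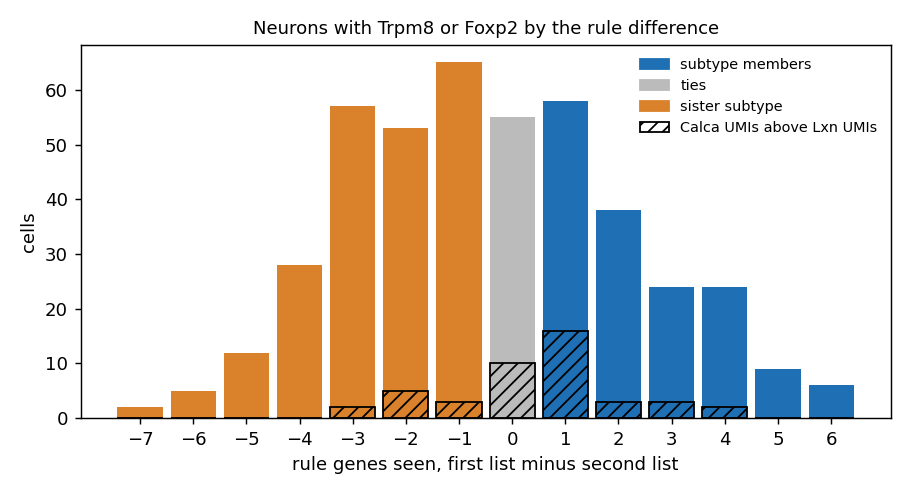
Number of cells (y axis) at each difference between the genes seen of the first and the second list (x axis) for the 436 neurons with Trpm8 or Foxp2, with cells that hold more Calca than Lxn marked. Members lie to the right of 0, and 16 of the 24 marked members sit at a difference of 1.

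All 20 genes taken as shared by cold neurons stand in the marker lists the study drew from these cells for both of its Trpm8 clusters, so their counts are a description and not independent evidence. Of these 20 genes with at least 20 UMIs, 19 were over 2-fold higher in members, with a median log2 CPM ratio of 1.82. Over all 13522 genes compared, 4.87% were over 2-fold higher and 12.0% over 2-fold lower in members than in other neurons, with a median of -0.06. Of the 658 genes counted as higher, 126 had no UMI in members, since a group at 0 was set to 3 counts and other neurons are far more numerous, so 532 were seen in members. Lxn (chromosome 3, 67457998 to 67463926) was at 3207 (3104 to 3312) CPM in members and 1068 CPM in other neurons. Plcd4, a phospholipase C gene, was at 1264 (1200.1 to 1331) CPM against 182 CPM, a log2 ratio of 2.80 (2.71 to 2.89). Gpr26, an orphan G protein-coupled receptor gene, was at 173 (149 to 198) CPM against 17.7 CPM, and its log2 ratio was 3.29 (3.02 to 3.55). Against the sister subtype, 0 of these 20 genes were over 2-fold higher and 1, Mt2, was over 2-fold lower in members, beside 6.41% and 3.91% of all genes, and the median log2 ratio was -0.43. With the cells with more Calca than Lxn left out, 0 were past 2-fold in either direction and the median was -0.33, beside 5.79% and 4.47% of all genes. Lxn stood at 3631 CPM and Plcd4 at 1953 CPM in the sister subtype.

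Peptide genes went different ways against the sister subtype and against other neurons. Of 19 peptide, granin and peptide-processing genes compared, 8 were over 2-fold higher and 1 over 2-fold lower in members, where 6.41% of all 9369 genes compared were over 2-fold higher and 3.91% over 2-fold lower. The median log2 ratio of the list was 0.77, beside 0.06 over all genes. Without the cells with more Calca than Lxn in both groups, 7 of 19 were higher and 1 lower, with a median of 0.47, beside 5.79% and 4.47% of 9089 genes. Against other neurons, 3 of 26 genes of the list were over 2-fold higher and 11 over 2-fold lower in members, with a median of -0.66, beside 4.87% and 12.0% of all genes.

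Gal, the gene of galanin (chromosome 19, 3409915 to 3414544), had 0, 4 and 35 UMIs per member as lowest, median and highest, and 30 members had none. Its level was 798 (747 to 851) CPM in members, 181 CPM in the sister subtype and 278 CPM in other neurons. The log2 ratio to other neurons was 1.52, and 4.31 without the cells with more Calca than Lxn. It was 0.78, under 2-fold, without cells that held a marker of other neurons or of glia. The log2 ratio to the sister subtype was 2.14 (1.94 to 2.34), and 2.29 without the cells with more Calca than Lxn. Gal was seen in 81.1% of members and 38.7% of the sister subtype, or 51.7% and 14.9% with each cell thinned to 1000 UMIs. It was seen in 0% of glia and 1.24% of red blood cells, so the share in both Trpm8 groups lay above this background. Gal is among the markers given for the subtype but was not used by the rule.

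Tac1, which encodes substance P (chromosome 6, 7554879 to 7565834), was at 4467 (4345 to 4591) CPM in members, 1374 CPM in the sister subtype and 2602 CPM in other neurons. Members held 0, 20 and 218 UMIs of it as lowest, median and highest, and the log2 ratio to the sister subtype was 1.70 (1.63 to 1.78), or 1.69 without the cells with more Calca than Lxn. Scg2, a secretogranin of dense-core vesicles, was at 1819 (1741 to 1899) CPM in members and 592 CPM in the sister subtype, and its highest cell held 115 UMIs. Adcyap1, the gene of the peptide PACAP, was at 424 (387 to 463) CPM against 120.4 CPM, and Pam, the enzyme that amidates peptides, was at 458 (419.6 to 499) CPM against 216 CPM. Gal, Tac1, Scg2, Adcyap1 and Pam thus all had higher levels in members, with intervals that did not reach the sister subtype's level.

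Calca (chromosome 7, 114631478 to 114636357) depended on the cells with more Calca than Lxn. Its level was 1963 (1883 to 2046) CPM in all members, 301 CPM in the sister subtype and 4607 CPM in other neurons. Without the cells with more Calca than Lxn it was 383 CPM in members and 84.2 CPM in the sister subtype, so the log2 ratio went from 2.71 to 2.19. Since Calca defined the cells left out, the lower value follows in part from the choice. Calcb, the second CGRP gene, stood at 326 CPM and 282 CPM. Cartpt went from 310.0 CPM to 74.0 CPM in members when those cells were left out of both groups, and from 164 CPM to 57.3 CPM in the sister subtype. Pcsk1, a prohormone convertase, went the other way, at 13.1 CPM in members and 32.0 CPM in the sister subtype.

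**Figure D3:**
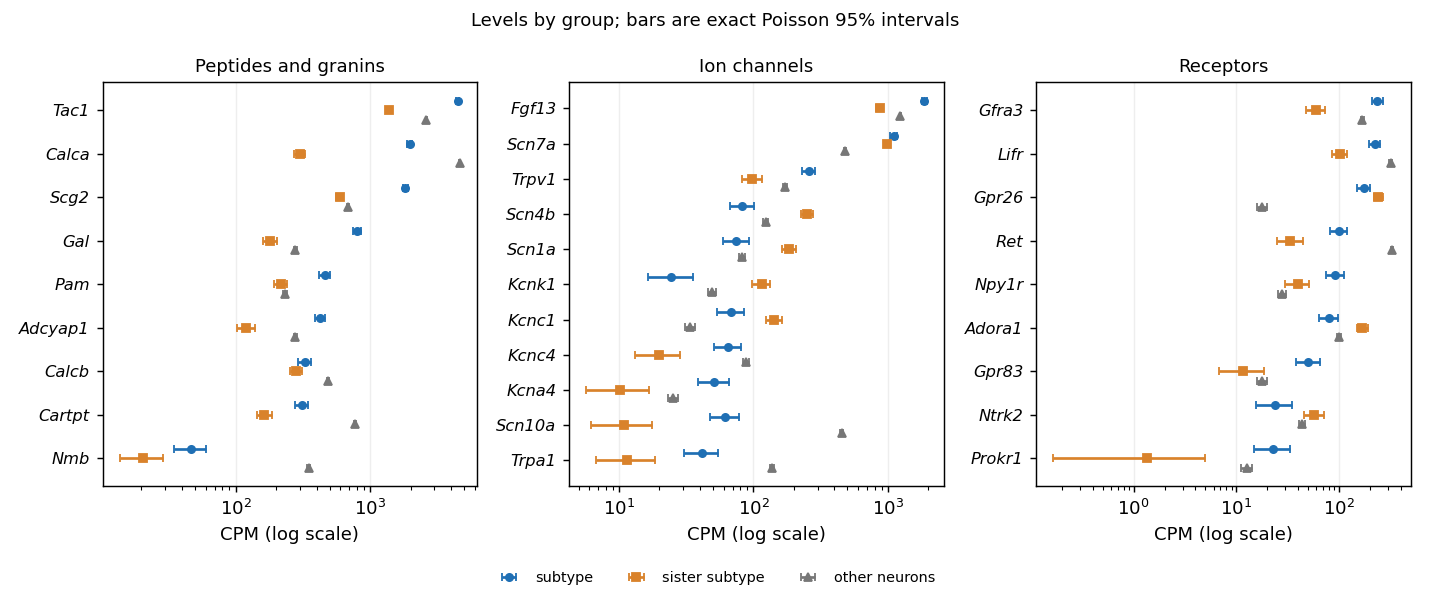
CPM on a log axis (x axis) of peptide and granin genes, ion channel genes and receptor genes (y axis) in members, sister subtype and other neurons, with exact Poisson 95% intervals as bars. Gal stands at 798 CPM in members and 181 CPM in the sister subtype, while Scn1a stands at 74.4 CPM and 185 CPM.

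TRP channel genes, the family of Trpm8, were compared next. Of 11 genes of this family compared, 5 were over 2-fold higher in members than in the sister subtype and 0 over 2-fold lower, with a median log2 ratio of 0.50, beside 6.41% and 3.91% of all genes. Without the cells with more Calca than Lxn, 4 of 11 were higher and 0 lower. Trpv1, the heat and capsaicin channel (chromosome 11, 73234292 to 73261242), was at 257 (229 to 289) CPM in members, 97.9 CPM in the sister subtype and 171 CPM in other neurons. Members held 0, 0 and 46 UMIs of Trpv1 as lowest, median and highest, and 1 cell gave 15.6% of all UMIs. The share of cells with Trpv1 was 45.3% (37.4% to 53.4%) in members and 20.3% in the sister subtype, and 19.4% and 9.37% after thinning to 1000 UMIs. In glia the share was 0.617% and in red blood cells 0.745%. The log2 ratio of the levels was 1.39 (1.10 to 1.69), and 1.30 without the cells with more Calca than Lxn. Much of this level came from members at the edge of the rule. The 58 cells at a difference of 1 held 421 CPM (358 to 492). Of the 160 Trpv1 UMIs of these 58 cells, 46 came from 1 cell. Without the cells with more Calca than Lxn, the level at a difference of 1 was 374 CPM. The 101 cells at 2 or more held 176 CPM (147 to 208). Their log2 ratio to the whole sister subtype was 0.84 (0.49 to 1.19), under 2-fold. Trpv1 was also under 2-fold with every cell weighing the same, at 0.89, and without the 10% of neurons with most UMIs, at 0.76. The shares with Trpv1 were 48.3% and 43.6% at a difference of 1 and of 2 or more. Trpa1, the channel for irritants, was at 41.2 (30.2 to 54.7) CPM against 11.6 CPM, and Trpc4 at 22.8 (14.9 to 33.4) CPM against 7.48 CPM. Trpc5, reported as a cold-sensitive channel of teeth, was at 0 UMIs in members and 6.12 CPM in the sister subtype. Pirt, a membrane regulator of TRP channels, stood at 1026 CPM and 956 CPM.

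Among 14 sodium channel genes and their partners, 3 were over 2-fold higher and 3 over 2-fold lower in members, beside 6.41% and 3.91% of all genes, and 2 and 3 of 12 without the cells with more Calca than Lxn. Scn1a was at 74.4 (59.5 to 92.0) CPM against 185 CPM, Scn8a at 35.0 CPM against 86.4 CPM, and the beta subunit gene Scn4b at 82.3 (66.5 to 101) CPM against 252 CPM. These 3 genes belong to channels known for fast firing and were lower in members. Fgf13, an intracellular partner of sodium channels, was higher, at 1863 (1784 to 1943) CPM against 866 CPM. The nociceptor channel gene Scn10a stood at 61.3 CPM in all members and 10.9 CPM in the sister subtype. With the cells with more Calca than Lxn left out of both groups it stood at 17.7 CPM and 8.49 CPM, a log2 ratio of 1.06 (-0.09 to 2.26).

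Of 30 potassium channel genes, 6 were over 2-fold higher and 7 over 2-fold lower in members than in the sister subtype, with a median log2 ratio of -0.12, beside 6.41% and 3.91% of all genes, and 7 and 6 of 27 without the cells with more Calca than Lxn. Kcna4, an A-type channel gene, was at 50.8 (38.6 to 65.7) CPM against 10.2 CPM, and Kcnc4 was at 64.8 (50.9 to 81.3) CPM against 19.7 CPM. Kcnk1, a leak channel gene, was at 24.5 (16.3 to 35.4) CPM against 115 CPM, Kcnc1 at 68.3 (54.0 to 85.2) CPM against 143 CPM, and Kcnn2, a small-conductance calcium-activated channel gene, at 25.4 CPM against 64.6 CPM.

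Of 25 G protein-coupled receptor genes, 10 were over 2-fold higher and 1 over 2-fold lower than in the sister subtype, with a median log2 ratio of 0.70, beside 6.41% and 3.91% of all genes and a median of 0.06. These became 9 and 1 of 23 without the cells with more Calca than Lxn. Npy1r, a receptor for neuropeptide Y, was at 91.1 (74.4 to 110.3) CPM against 39.4 CPM, and Gpr83 at 49.9 (37.8 to 64.7) CPM against 11.6 CPM. Prokr1, a prokineticin receptor gene, was at 22.8 (14.9 to 33.4) CPM against 1.36 CPM, where the sister level rests on 2 UMIs and the log2 ratio was 4.06 (2.07 to 7.18). The gene that was lower was Adora1, an adenosine receptor, at 79.7 (64.2 to 97.8) CPM against 168 CPM.

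Of 17 growth factor and cytokine receptor genes, 7 were over 2-fold higher and 1 over 2-fold lower, with a median log2 ratio of 0.73, beside the same shares of all genes. Leaving out the cells with more Calca than Lxn gave 5 and 1 of 15. Gfra3, the receptor for artemin, was at 236 (208 to 265) CPM in members, 59.2 CPM in the sister subtype and 168 CPM in other neurons, and was seen in 54.1% of members and 19.4% of the sister subtype (19.8% and 5.81% after thinning), beside 0% of glia and 0.497% of red blood cells. Its log2 ratio was 1.99 (1.64 to 2.36), and 2.19 without the cells with more Calca than Lxn. Ret, the signalling subunit that Gfra3 works with, was at 99.8 (82.3 to 119.9) CPM against 33.3 CPM. Ntrk2, the receptor for brain-derived neurotrophic factor, was at 23.6 CPM against 57.1 CPM, and 1 member gave 59.3% of its UMIs.

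Of 48 transcription factor genes, 11 were over 2-fold higher and 2 over 2-fold lower, beside 6.41% and 3.91% of all genes, and 8 and 2 of 44 without the cells with more Calca than Lxn. Zbtb20 was at 637 (591 to 685) CPM against 252 CPM, Zeb2 at 90.2 (73.6 to 109) CPM against 23.1 CPM, and Bcl11a at 35.0 CPM against 5.44 CPM. The activity and stress genes Jun and Atf3 were at 656 CPM against 262 CPM and 217 CPM against 80.9 CPM, while Fos stood at 581 CPM against 495 CPM. The sensory neuron factor genes Pou4f1 and Isl1 stood at 147 CPM against 150.3 CPM and 333 CPM against 407 CPM.

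Nefh, the heavy neurofilament subunit of large-calibre axons (chromosome 11, 4938754 to 4948064), was lower in members. Members held 0, 3 and 77 UMIs of it as lowest, median and highest, and it was seen in 84.3% of them, beside 9.26% of glia and 9.19% of red blood cells. Its level was 897 (843 to 953) CPM in members, 2414 CPM in the sister subtype and 966 CPM in other neurons. The log2 ratio to the sister subtype was -1.43 (-1.53 to -1.33), and -1.30 without the cells with more Calca than Lxn. Thy1 was at 88.4 (72.0 to 107) CPM against 292 CPM, while Prph, the peripherin of small axons, stood at 2999 CPM against 2968 CPM. Of 36 cytoskeletal genes, 2 were over 2-fold higher and 3 over 2-fold lower, beside 6.41% and 3.91% of all genes, and 1 and 3 without the cells with more Calca than Lxn.

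Genes of energy metabolism had slightly lower levels in members than in the sister subtype across nearly the whole list. Of 76 respiratory chain genes, 0 were past 2-fold in either direction, beside 6.41% and 3.91% of all genes. Of the 76, 72 had a log2 ratio below 0 to the sister subtype, beside 44.4% of all genes, and the median was -0.51. Leaving out the cells with more Calca than Lxn again gave 72, with a median of -0.46, beside 45.2% of all genes. Against other neurons the median was 0.35, with 73 of 76 above 0, beside 45.7% of all genes. Summed over the list, members held 47410 CPM, the sister subtype 68597 CPM and other neurons 37284 CPM, so members lay between the other groups. Of 37 citrate cycle and glycolysis genes, 34 had a ratio below 0, with a median of -0.59, or 33 and -0.53 without those cells. Ldhb, a lactate dehydrogenase subunit gene, was at 375 (340.1 to 412) CPM against 1168 CPM.

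The genes named by ratio alone leave out the genes that the rule used, such as Ndrg1, Cald1 and Angpt4. Gria1, an AMPA-type glutamate receptor subunit (chromosome 11, 57011387 to 57330244), had the highest log2 ratio to the sister subtype among them, 4.14 (2.49 to 6.47), at 35.9 CPM against 2.04 CPM, the latter from 3 UMIs. Abi3bp, an extracellular matrix protein gene, had 3.29, Rnase4, a secreted ribonuclease gene, 2.77, and Fxyd6, a sodium pump regulator gene, 2.53. Over the 9 alternative settings the ratio ran from 3.28 to 4.15 for Gria1, 2.76 to 4.09 for Abi3bp, 2.20 to 4.11 for Rnase4 and 2.26 to 3.83 for Fxyd6. Pcp4, a calmodulin-binding protein gene (chromosome 16, 96467606 to 96525793), stood at 977 (921 to 1036) CPM against 199.97 CPM, with 0, 3 and 70 UMIs per member as lowest, median and highest. The remaining 10 of the 15 highest were 1190002N15Rik, Emp3, Calca, Bex4, Serpinb8, Mpped2, Kcna4, Fam89a, Cd24a and Rnf32, with log2 ratios of 2.25 to 3.85. Emp3 went from 2.94 to 2.21 without the cells with more Calca than Lxn.

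At the other end, Ctxn3, a cortexin gene, had the lowest log2 ratio, -4.12 (-5.05 to -3.32), at 11.4 CPM against 198 CPM, and it was -3.08 without the 10% of neurons with most UMIs. Hs3st4, a heparan sulfate sulfotransferase gene, followed at -3.40, Olfm3, an olfactomedin gene, at -3.01 and Rab37, a vesicle GTPase gene, at -2.81. The ratio of Olfm3 ran from -3.65 to -2.29 over the alternative settings. Efr3a, which anchors a lipid kinase at the plasma membrane, was at 105 CPM against 547 CPM. The remaining 10, with Lgi3, Lphn2, Slc34a2, Kcnk1, Tuba1c, Nmrk1, Glrx, Crtac1, Omg and Cnst, lay between -2.72 and -1.90. With every cell weighing the same, Nmrk1 went from -2.03 to -0.97, under 2-fold. All 30 genes kept their direction when the cells with more Calca than Lxn were left out of both groups.

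**Figure D4:**
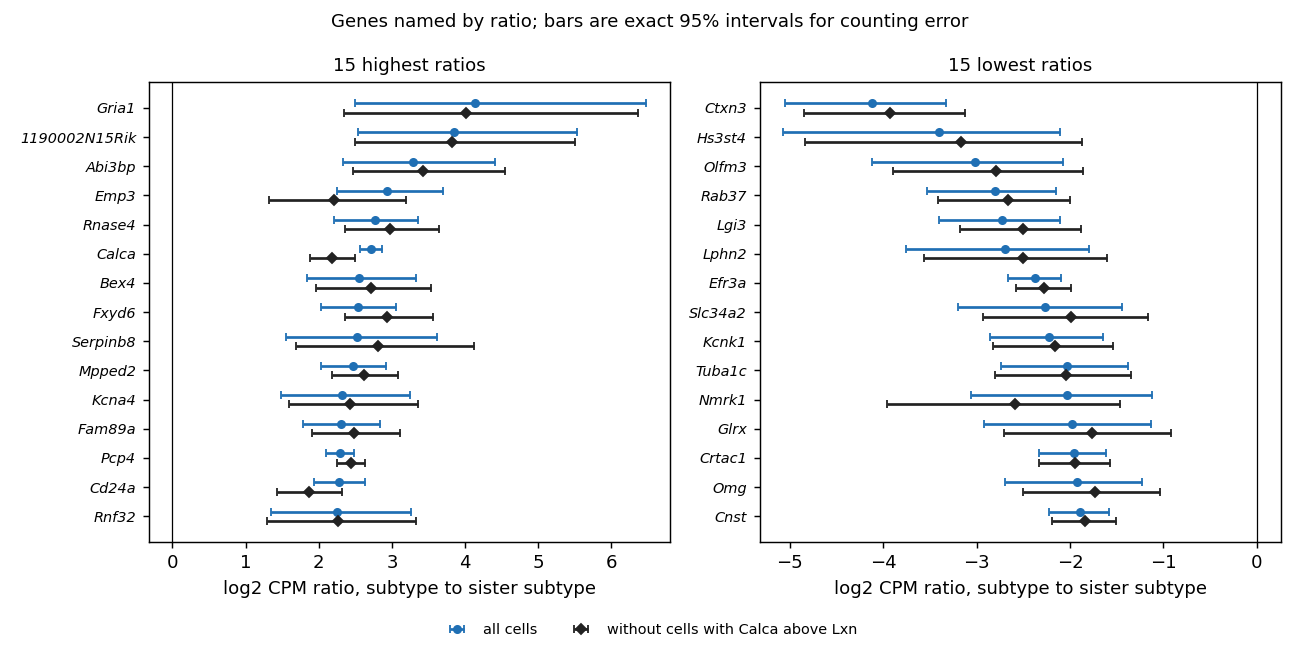
Log2 CPM ratio of members to the sister subtype (x axis) for the 15 genes with the highest and the 15 with the lowest ratio (y axis), with exact 95% intervals for counting error, over all cells and without cells with more Calca than Lxn. Every gene lies on the same side of 0 in both versions.

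Marker lists that the study itself drew from these cells are not independent evidence. Genes used by the rule were left out, which took 10 of 100 listed genes from C2 and 11 of 100 from C1. Of the other 90 genes listed for the C2 cluster, 18 were over 2-fold higher and 1 over 2-fold lower in members than in the sister subtype, beside 6.41% and 3.91% of all genes. Of the other 89 genes listed for the C1 cluster, 0 were over 2-fold higher and 23 over 2-fold lower. With the cells with more Calca than Lxn left out of both groups, these counts were 21 and 0 for C2 and 0 and 16 for C1, beside 5.79% and 4.47%.

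Against the other neurons, the highest ratios among genes that the rule did not use included those of Abi3bp, with a log2 ratio of 4.57 (4.04 to 5.11), Cpxm2, with 3.98, S100a4, a calcium-binding protein gene, with 3.46, and Atp1b2, a sodium pump subunit gene, with 3.11. Cpxm2, S100a4, Ntm and Cdh8 also belong to the 20 genes above. Ntm, a cell adhesion gene, had 2.68, Cdh8, a cadherin gene, 2.62, Akap5, a kinase anchor gene, 2.43 and Rxrg, a retinoid receptor gene, 2.05. Over the alternative settings the ratio ran from 3.57 to 4.95 for Abi3bp, 3.25 to 4.91 for Cpxm2, 2.74 to 3.82 for S100a4 and 1.49 to 5.14 for Rxrg. The lowest were Tmem233, at -5.45 (-6.23 to -4.78), and Ly86, at -4.90. Car10 followed at -3.79, Plxnc1, a semaphorin receptor gene, at -3.55, and Kcnt1, a sodium-activated potassium channel gene, at -3.25. These low ratios also moved, and without cells that held a marker of other neurons or of glia they were -3.24 for Tmem233, -2.69 for Ly86, -2.25 for Plxnc1 and -2.21 for Kcnt1. Grik1, Tmem45b and Paqr5 also stood among the 15 lowest, but 1 member gave 88.2% of the UMIs of Grik1, 87.5% of those of Paqr5 and all of those of Tmem45b. Of 47 G protein-coupled receptor genes compared with other neurons, 8 were over 2-fold higher and 21 over 2-fold lower in members, beside 4.87% and 12.0% of all genes. The same counts were 7 and 20 of 44 potassium channel genes and 1 and 11 of 27 growth factor and cytokine receptor genes. The 1 receptor gene of the latter list counted as higher was Tek, which had no UMI in members and was set to 3 counts. The counts were 4 and 18 of 63 transcription factor genes. For TRP channel genes they were 1 and 4 of 15, and for sodium channel genes 2 and 2 of 15.

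Levels also moved along the difference between the lists, from cells with at least 3 more genes of the second list, through ties, to cells with at least 3 more genes of the first. Gal went from 153 CPM at the sister end to 133 CPM at a difference of -2, 254 CPM at -1, 210 CPM in ties, 598 CPM at a difference of 1, 670 CPM at 2 and 1051 CPM at 3 or more. Nefh went from 2783 CPM to 1820 CPM in ties, 1327 CPM at 1, 788 CPM at 2 and 611 CPM at 3 or more. Pcp4 went from 193 CPM to 1482 CPM and Dner, a neuronal Notch ligand gene, went from 1170 CPM to 182 CPM between the same ends. Trpm8 was at 649 CPM at the sister end, 340 CPM in ties, 261 CPM at 1, 303 CPM at 2 and 376 CPM at 3 or more. Nefh and Dner fell at every step. Gal, Pcp4 and Trpm8 did not move step by step, and neither did Tac1, Trpv1 and Calca. Tac1 went from 972 CPM at the sister end to 1862 CPM at -1, 1077 CPM in ties, 4199 CPM at 1, 3729 CPM at 2 and 5189 CPM at 3 or more. Trpv1 was at 89.2 CPM at the sister end, 105 CPM at -1 and 31.1 CPM in ties. It was at 421 CPM at 1, 143 CPM at 2 and 198 CPM at 3 or more. Of the 160 Trpv1 UMIs at a difference of 1, 46 came from 1 cell. Calca was at 3701 CPM at a difference of 1 and 641 CPM at 2, or 470 CPM at 1 without the cells with more Calca than Lxn. The cells were not equally deep along this axis, with a median of 4338 UMIs at the sister end, 3660 UMIs in ties, 3519 UMIs at a difference of 1 and 5680 UMIs at 3 or more, and the part of depth was not tested.

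**Figure D5:**
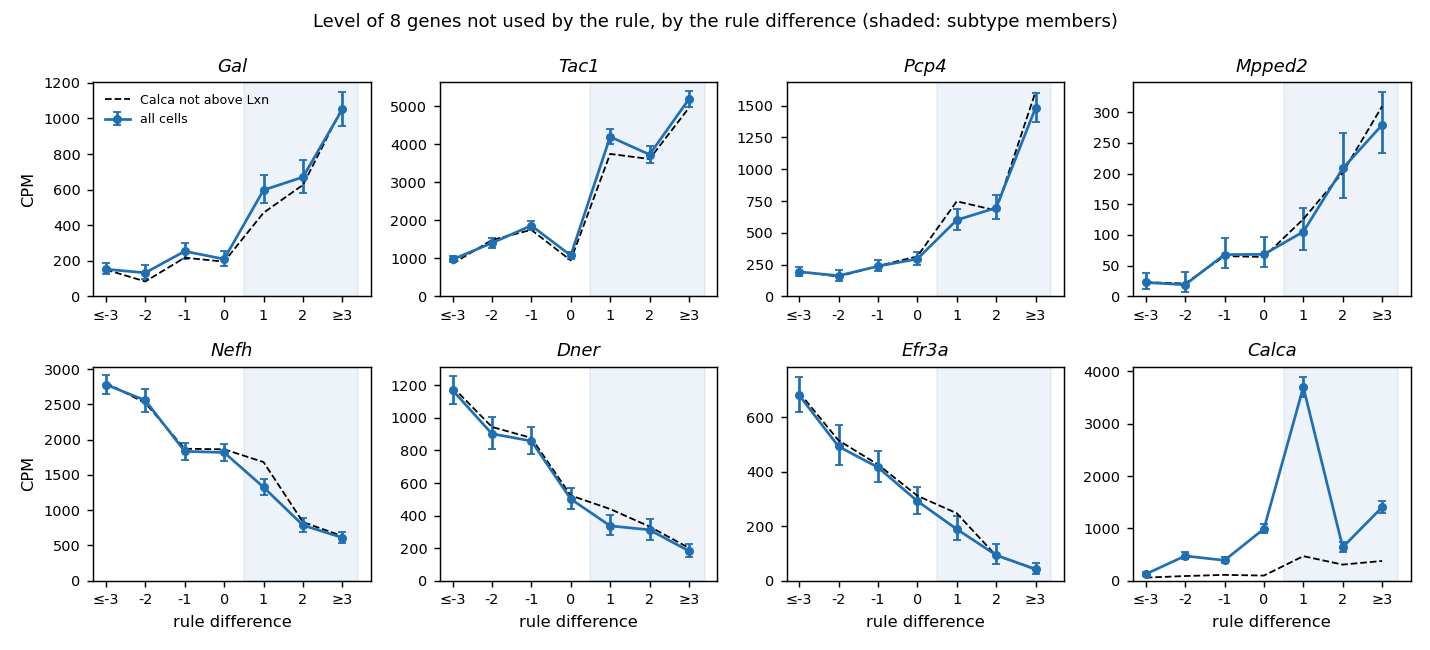
CPM (y axis, linear, from 0) of 8 genes that the rule did not use at each difference between the first and the second list (x axis), with exact Poisson 95% intervals as bars, members shaded and a dashed line for cells without more Calca than Lxn. Gal reaches 1051 CPM and Nefh 611 CPM at a difference of 3 or more, and the Calca value of 3701 CPM at a difference of 1 becomes 470 CPM on the dashed line.

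Within the 135 members without excess Calca, 54 held Trpv1 (median 7334 UMIs) and 81 did not (median 3701 UMIs), a split chosen after the values were seen. Those with Trpv1 held Trpm8 at 254 CPM against 467 CPM, Ndrg1 at 103 CPM against 278 CPM and Gfra3 at 350 CPM against 123 CPM. Calca stood at 584 CPM against 162 CPM, and Tac1 at 5012 CPM against 3350 CPM. Gal stood at 709 CPM against 830 CPM. The stress and activity genes Atf3 and Fos stood at 296 CPM against 94.2 CPM and 651 CPM against 305 CPM, and S100a4 at 350 CPM against 98.6 CPM. With each cell thinned to 1000 UMIs, Atf3 was seen in 21.2% of cells with Trpv1 and 7.81% of those without. The shares were 36.1% and 14.9% for Calca, 26.8% and 13.5% for Gfra3, and 9.78% and 23.4% for Ndrg1. Gal was seen in 54.2% and 53.4%. The cells with Trpv1 were chosen on unthinned counts and were deeper, so depth and Trpv1 cannot be told apart in this split.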

How the data were processed

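Neurons of trigeminal ganglia of FVB/N mice were captured by Drop-seq in 9 runs. The authors deposited 1 table of UMI counts, 21536 genes by 6997 barcodes with 30491529 UMIs, not normalized, and barcodes of 1000 to 190815 UMIs (median 2031). The submitters' processing notes name bcl2fastq 2.17, STAR 2.5.3a, Seurat 1.4.0.16 and the mm10 genome.

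From these counts, groups were formed by the rule in the results, and UMIs were summed per group. Members and gene lists were chosen with earlier results of these data known. Genes with at least 20 UMIs over both groups were compared by the log2 CPM ratio, with an exact conditional binomial 95% interval, and called past 2-fold. A group without a UMI was set to 3 counts. Intervals of shares are exact binomial (Clopper-Pearson), and thinned shares are hypergeometric expectations at 1000 UMIs. Glia and red blood cells lay outside the gate with at most 1 neuron gene, the latter with at least 10% haemoglobin UMIs. Named genes were seen in at least 20% of cells of the higher group and were the 15 highest and 15 lowest ratios in each comparison, without mitochondrial, ribosomal and rule genes, with list members at 50 CPM or more in either group, the genes of the rule, and receptor and marker genes named at 0 after their values were seen. Other genes below 50 CPM were likewise named after their values were seen. Some genes are not reported here. No doublet caller was run. Alternatives changed the margin of the rule, the gate, the weight of cells, the UMI minimum, deep cells (top 10% of UMIs), cells with other markers, cells with more Calca than Lxn, mitochondrial share (over 5%) and library totals. Sums without genes used by the rule, Trpv1 by margin, glial sums without 2 cells per group and counts of called genes at 0 were added after the data were seen. Positions are from GENCODE on GRCm38. The code was tested on simulated data. Python 3.11.15, NumPy 2.4.6, SciPy 1.17.1 and matplotlib 3.10.9 were used.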

Additional observations from a re-analysis of the deposited data

How the results depend on the processing

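Members were 4.12% of gated neurons, but 2.62% with a difference of at least 2 between the lists, 3.50% with Trpm8 required, 1.89% with at least 2 Trpm8 UMIs, and 6.19% without cells with more Calca than Lxn, which removes many other neurons from the total. Trpm8 in members was 318 CPM, and 423 CPM with at least 2 Trpm8 UMIs, 409 CPM with every cell weighing the same, 391 CPM without the 10% of neurons with most UMIs and 355 CPM without cells with more Calca than Lxn. The Gal log2 ratio to the sister subtype of 2.14 was 2.63 with a difference of at least 2, 2.43 with at least 2 Trpm8 UMIs and 1.82 without the deepest neurons. The Nefh ratio of -1.43 was -1.98, -1.30 (every cell the same), -1.25 (without the deepest) and -1.30 (without more Calca than Lxn). The share with Trpv1 was 19.4% after thinning. Genes past 2-fold higher than in the sister subtype numbered 601, or 290 with at least 50 UMIs and 2380 with at least 1; lower, 366, or 566 with every cell the same, 196 and 1697, of which 771 had no UMI in the sister subtype. Higher than in other neurons were 658 genes, or 1132 with a difference of at least 2, 1279 with at least 2 Trpm8 UMIs, 333 with at least 50 UMIs and 6580 with at least 1. Of these, 126, 491, 580, 0 and 5201 had no UMI in members, which were set to 3 counts, as were 922 of the 2380.

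One alternative chosen at the outset was not used as written. Leaving out every cell with a UMI of any gene on a list of markers of other cells, Hbb-bs, Prl and Gh among them, left 1 of 159 members and 11 sister cells, since Hbb-bs was seen in 151 of them. On that 1 cell of 2273 UMIs, 62 of 70 named genes had no UMI and 61 of 140 ratios changed sign, 41 of them past 2-fold, so these values say nothing about the subtype. It was replaced, after the data were seen, by the same list without Hbb-bs, Prl and Gh, which left 105 members. Under the replacement the share was 4.86%, Trpm8 393 CPM, the Nefh ratio -1.25, and 415 genes were higher than in other neurons.

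Over 9 settings and 140 ratios of named genes, 60 of 1260 values had the opposite sign, 4 of them for ratios past 2-fold and 56 for ratios within 2-fold. Beside those 4, 985 values stayed within the counting interval and 271 moved beyond it. Of 95 ratios past 2-fold, 65 moved by over 1.5 times under at least 1 setting. Calca to other neurons became 1.02 without cells with more Calca than Lxn, which trims Calca in both groups. The same setting moved Gal to other neurons from 1.52 to 4.31 and Tac1 from 0.78 to 3.10. Trpv1 to other neurons went from 0.59 to 3.01 and Gfra3 from 0.49 to 3.50. Under the replacement these ratios were 0.78 for Gal, 0.19 for Tac1, -0.07 for Trpv1 and -0.16 for Gfra3. Gna14 to the sister subtype became -0.63 with a difference of at least 2, where members held 2 UMIs of it, and -0.26 under the replacement. Tmem45b to the sister subtype, whose UMIs came from 1 cell, became -0.21 with every cell the same. The cause was not tested. The limit on mitochondrial UMIs and the totals without haemoglobin, mitochondrial and ribosomal UMIs, the latter added after seeing the data, left all 140 within their intervals. No paired analysis was possible because the columns are barcodes that carry no run number, and leaving out each replicate could not be run for the same reason.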

Other observations

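Of 37 adhesion and guidance genes, 8 were over 2-fold higher in members and 6 over 2-fold lower, with a median log2 ratio of 0.01, beside 6.41% and 3.91% of all genes. Without the cells with more Calca than Lxn, 5 of 32 were higher and 7 lower, with a median of -0.18, so the balance turned. Lrrtm2, a postsynaptic adhesion gene, was at 154 (132 to 179) CPM against 51.0 CPM, and Cdh11, a cadherin gene, at 70.9 (56.3 to 88.2) CPM against 27.2 CPM. Dner was at 269 (239.6 to 301) CPM against 999.8 CPM, and Cdh12, another cadherin gene, had no UMI in members and stood at 18.4 CPM in the sister subtype. Of 28 calcium-binding and calcium pump genes, 3 were higher and 2 lower, and the same numbers of 26 without those cells. Both plasma membrane calcium pump genes past 2-fold went opposite ways, with Atp2b4 at 151 (129.8 to 176) CPM against 34.0 CPM and Atp2b2 at 65.7 (51.7 to 82.3) CPM against 170.0 CPM. Hpcal1, a neuronal calcium sensor gene, was at 509.6 (469 to 553) CPM against 201 CPM. Of 16 secreted factor genes, 3 were higher and 5 lower, or 2 and 6 without those cells, and Lgi3 was at 21.0 (13.5 to 31.3) CPM against 139 CPM.

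Past 2-fold higher and lower were 2 and 3 of 21 transmitter release genes, 3 and 1 of 17 glutamate and GABA receptor genes, 2 and 1 of 19 HCN, calcium and mechanosensitive channel genes, and 1 and 0 of 13 modulators of the cold response, beside 6.41% and 3.91% of all genes. Without the cells with more Calca than Lxn these were 1 and 3 of 21, 4 and 1 of 17, 1 and 1 of 19, and 0 and 1 of 13. In Piezo2, 1 member gave 52.8% of the UMIs. The 7 ribosomal protein genes that the study lists for C2 had a median log2 ratio of 0.77 and none past 2-fold, and they too were chosen on these cells.

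The 24 members that entered through Foxp2 alone were shallower, with a median of 2331 UMIs against 5288 UMIs in the 135 with Trpm8. They held Lxn at 2122 CPM against 3313 CPM, Plcd4 at 668 CPM against 1323 CPM, Gal at 678 CPM against 809 CPM, Tac1 at 6976 CPM against 4221 CPM and Calca at 2574 CPM against 1903 CPM. Of the 24, 7 held more Calca than Lxn, and 1 cell gave 138 of their 262 Calca UMIs. Leaving cells with more Calca than Lxn out of both sets gave Lxn at 2551 CPM against 3852 CPM and Gal at 707 CPM against 772 CPM. Tac1 then stood at 6767 CPM against 3979 CPM, and Calca at 491 CPM (352 to 666) against 373 CPM (334 to 416). Of the 565 Tac1 UMIs of the 17 Foxp2 cells left, 203 came from 1 cell. The 55 ties held Gal at 209.6 CPM, Tac1 at 1077 CPM and Nefh at 1819.6 CPM, and their Trpv1 level was 31.1 CPM (17.4 to 51.3), below that of members and of the sister subtype.

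Depth sets the limits of these values. With a median of 4899 UMIs per member, 1 UMI in a typical cell is a coarse measure. All cells are 1 pooled sample of FVB/N mice, so the spread between runs and mice is unknown. The members were chosen on counts of the same cells, and doublets were not called.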
